A study of Homo sapiens with 9 samples.

Results

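HIF-1α ChIP-seq of the neuroblastoma cell line SK-N-BE(2), which is human and MYCN-amplified, placed some of its strongest hypoxia sites in stretches of chromosomes 5, 16 and 1 that carry the names CARMN and CSNK1A1, GPRC5B and GPR139, and HSD17B7. Cells were kept for 48 hours at 21% oxygen for the 3 normoxia libraries and at 1% oxygen for the 3 hypoxia libraries, and the 3 input libraries were all made at 21% oxygen. Each HIF-1α library has 1 peak list, with a depth of 5.31 to 6.69 background reads per kb. The labels name no separate cultures within a group. A p-value therefore covers only how far these libraries spread, which may be technical variation. Peak lists measure no expression, so the identity of the cells was not checked.

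Each window was chosen by measured values: it holds 1 of the 10 regions that ranked highest by fold over the 3 hypoxia lists, and that region is called the leading region here. Its fold and rank are therefore descriptions. A row of a list belonged to a window if its summit, the base of highest signal, lay there. On hg19 the windows run from 148700000 to 148950000 on chromosome 5, from 19850000 to 20150000 on chromosome 16 and from 162700000 to 163030000 on chromosome 1. They held 65 of the 16463 summit rows of the 6 lists. Joining intervals that overlapped by 1 bp or more gave 20 of 9420 regions: 3 in the CARMN-CSNK1A1 window, 4 in the GPRC5B-GPR139 window and 13 in the HSD17B7 window. Gene names come from the choice of the windows. Without an hg19 annotation, no site was placed in an exon, intron or promoter, and the distance from other HIF-1 targets was not measured.

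HIF-1α is the subunit of HIF-1 that is hydroxylated and degraded when oxygen is present. In hypoxia it pairs with ARNT and binds DNA at short elements, often with the core ACGTG, both at promoters and at distal enhancers. CARMN is a long noncoding RNA that hosts the microRNAs MIR143 and MIR145. CSNK1A1 encodes casein kinase 1 alpha, which phosphorylates beta-catenin in its destruction complex. GPRC5B and GPR139 encode orphan G protein-coupled receptors, the latter found mainly in the brain. HSD17B7 encodes a dehydrogenase that acts on estrogens and in cholesterol synthesis. In the RefSeq gene table of GRCh38.p14, used for order only, CCDC190 and LOC107985223 follow HSD17B7.

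RefSeq promoters of GRCh38.p14, from 250 bases before to 50 bases after a start site, were found for all 5 genes (7 promoters). The letters ACGTG, searched on both strands, occurred in 2 of the 7, those of CARMN and GPRC5B, and in 21.4% of all 35116 promoters in the table. In GPRC5B the match lay after the start site. The CARMN stretch is shown because it alone held ACGTG before the start site. It lies at chr5:149406737-149406796 on the plus strand of GRCh38.p14, and the capitals mark ACGTG. The match on the other strand comes from the same letters, CACGTG, which read the same on both strands, so it is not a separate element.
CARMN promoter: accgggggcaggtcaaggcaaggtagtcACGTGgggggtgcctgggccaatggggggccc
This build differs from hg19, so the stretch was not set against any HIF-1α site, and a match of letters is a description only. No hg19 sequence was used, so the bases under the sites are not analysed here.

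Each window had its leading region in all 3 hypoxia lists and in none of the normoxia lists. In the CARMN-CSNK1A1 window the leading region spanned 942 bp at chr5:148801751-148802692. The authors' fold, the reads at the summit plus 1 over the local background plus 1, was 28.8, 84.5 and 105.5 in hypoxia 1, 2 and 3. The summits rested on 52, 219 and 231 reads. The GPRC5B-GPR139 window had a leading region of 1071 bp at chr16:20013090-20014160, with folds of 28.7, 70.6 and 106.6 on 37, 183 and 200 reads. The HSD17B7 window had one of 1013 bp at chr1:162851567-162852579, with folds of 28.1, 62 and 84.4 on 49, 260 and 273 reads. In each of the 3 regions hypoxia 1 was lowest and hypoxia 3 highest. The length to which reads were extended is not given and was inferred from the shortest interval of each list. It was 48 bp in hypoxia 1 against 155 and 167 bp in hypoxia 2 and 3, so folds and reads are to be read within a list.

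Summit positions, which the choice did not use, differed little between libraries. They spread over 42 bp in the CARMN-CSNK1A1 leading region, with summits at 148802132, 148802174 and 148802159 in hypoxia 1, 2 and 3. The spread was 16 bp in the GPRC5B-GPR139 leading region (20013771, 20013760 and 20013755) and 21 bp in the HSD17B7 leading region (162852208, 162852201 and 162852187). Over all 13 regions of the windows called in at least 2 hypoxia lists the spread had a median of 79 bp and ran from 1 to 206 bp. Among the 8 regions of the windows called in all 3 lists, the spread was smallest at the GPRC5B-GPR139 and HSD17B7 leading regions. A weaker region of the GPRC5B-GPR139 window, at chr16:19890581-19890917, came next with 40 bp, just ahead of the CARMN-CSNK1A1 leading region. Outside the windows, the regions next above and below CARMN-CSNK1A1 in rank differed. Summits lay close at chr14:34407289-34408153 (34407725, 34407706 and 34407722) and further apart at chr11:1999864-2001295 (2000589, 2000651 and 2000667).

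The leading intervals were also long. They measured 549, 942 and 823 bp in the CARMN-CSNK1A1 window, 785, 1034 and 978 bp in the GPRC5B-GPR139 window and 636, 919 and 905 bp in the HSD17B7 window, again for hypoxia 1, 2 and 3. Within each list these lengths lay between the 97.5th and the 99.6th percentile. Regions of like rank outside the windows were long too. The lengths were 668, 822 and 854 bp at chr14:34407289-34408153 and 953, 1328 and 1418 bp at chr11:1999864-2001295. Length was not particular to regions of high rank. In the HSD17B7 window, chr1:162854709-162855875 in 214th place measured 444, 1024 and 1167 bp, at percentiles 94.25, 99.5 and 99.7. The inner shape of the leading regions differed. In hypoxia 1 the GPRC5B-GPR139 and HSD17B7 leading regions each had 5 summits, while that of CARMN-CSNK1A1 had 1; in hypoxia 2 and 3 the counts were 2 and 1, 1 and 1, and 1 and 1. The part of the shorter read extension of hypoxia 1 in this was not tested.

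**Figure D1:**
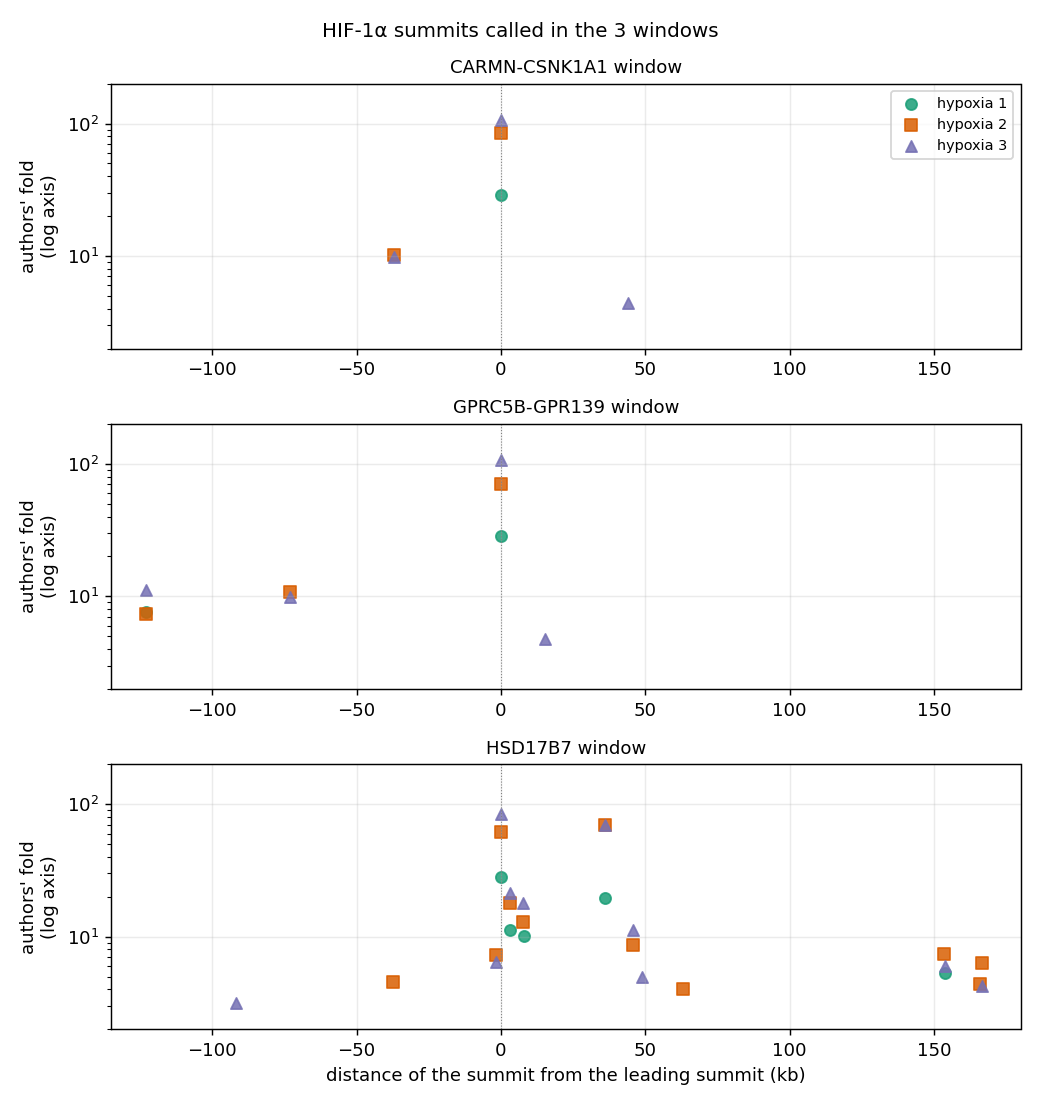
Authors' fold (log axis) of each called region against the distance of its summit from the leading summit (kb), 1 panel per window and 1 symbol per hypoxia library; no normoxia list had a call. The leading region stands alone at high fold in the CARMN-CSNK1A1 and GPRC5B-GPR139 windows, whereas the HSD17B7 window has a second such region 36 kb away.

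The windows differed in what lay around the leading region. The CARMN-CSNK1A1 window held 2 other regions, both weaker. The first, 37 kb before the leading summit at chr5:148765005-148765340, was called in hypoxia 2 and 3 with folds of 10.2 and 9.88 on 19 and 20 reads, and not in hypoxia 1. These folds were 12% and 9.37% of those of the leading region. The second, 44.1 kb after it, was called in hypoxia 3 alone with a fold of 4.41 on 10 reads. In hypoxia 1 this window held nothing but its leading region.

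The GPRC5B-GPR139 window held 3 other regions, and again none came near the leading one. That at chr16:19890581-19890917, 123 kb before the leading summit, had a call in every hypoxia list, at folds of 7.59, 7.29 and 11.1 on 9, 18 and 20 reads. In hypoxia 1 it was split into 2 intervals. That at chr16:19940203-19940802, 73.2 kb before, was called in hypoxia 2 and 3 with folds of 10.7 and 9.86 on 27 and 31 reads. A region 15.2 kb after the leading summit was called in hypoxia 3 alone, with a fold of 4.77 on 8 reads. Between 9.25% and 26.4% of the leading fold was reached by the 2 regions that recurred.

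The HSD17B7 window held 12 other regions, and 1 of them was nearly as strong as the leading region. It lay 36 kb further on, at chr1:162887720-162888633, with folds of 19.5, 69.3 and 70.3 in hypoxia 1, 2 and 3 on 35, 207 and 227 reads. This was 69.2%, 112% and 83.2% of the leading fold. In hypoxia 2 its fold was above that of the leading region although its reads were fewer, 207 against 260; the local background was 2.18 times the genome-wide value there and 3.49 times at the leading region. It took the 35th place over the 3 lists, and its summits lay within 79 bp of each other.

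Closer companions stood beside the HSD17B7 leading region. A region of 1167 bp at chr1:162854709-162855875, 2.99 kb after the leading summit, had folds of 11.2, 17.8 and 21.3 on 22, 74 and 84 reads. The next, at chr1:162859536-162860220 and 7.81 kb after, had folds of 10.1, 12.9 and 18 on 18, 55 and 62 reads; hypoxia 1 split it into 2 intervals. Both were called in all 3 hypoxia lists. In both, hypoxia 1 was lowest and hypoxia 3 highest, as at the leading region, but folds are to be read within a list. Of the 10 other regions of the windows called in both hypoxia 2 and 3, 5 had the higher fold in hypoxia 3. The last companion, 1.59 kb before the leading summit at chr1:162850518-162850718, was called in hypoxia 2 and 3 with folds of 7.33 and 6.47 on 21 and 20 reads. The summits of those lists were 1 bp apart.

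Further from the leading region the HSD17B7 window held weaker sites. At chr1:162897743-162898355, 45.8 kb after the leading summit, hypoxia 2 and 3 had folds of 8.58 and 11.3 on 42 and 30 reads. At chr1:163005554-163006167, 154 kb after, all 3 hypoxia lists had a call, with folds of 5.29, 7.41 and 6.05 on 9, 23 and 16 reads. At chr1:163018544-163019034, 167 kb after, hypoxia 2 and 3 had folds of 6.36 and 4.22 on 18 and 19 reads. Of the 5 regions of this window called in 1 list, 3 were in hypoxia 2 and 2 in hypoxia 3.

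Over all windows, 13 of the 20 regions were called in at least 2 hypoxia lists and 8 in all 3. Leaving out the leading regions, which recurred by choice, it was 10 of 17 (58.8%) and 5 of 17 (29.4%). Of all 9395 regions with a hypoxia call, 44% were called in at least 2 lists and 11.5% in all 3. All 5 regions called in exactly 2 lists were shared by hypoxia 2 and 3, so without hypoxia 2 or without hypoxia 3 the number recurring fell from 13 to 8. The 7 regions of 1 list had a median fold of 4.41 (3.16 to 4.95), below the median of the whole list in hypoxia 2 (6.53) and hypoxia 3 (6.12), and none of them was in hypoxia 1.

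Sites called in all 3 hypoxia lists lay close together at HSD17B7. Its leading region had 3 other regions called in all 3 hypoxia lists within 50 kb, while the leading regions of the CARMN-CSNK1A1 and GPRC5B-GPR139 windows had 0. Of these 3, 2 were much weaker than the leading region. They reached 25.2% to 39.8% and 20.7% to 35.7% of its fold and took the 214th and 302nd places. Among all 1085 regions called in all 3 lists, 18.6% had at least 1 such neighbour and 0.737% (8 regions) had at least 3; 4 of these 8 were the HSD17B7 leading region and its own neighbours. Of the 10 highest-ranked regions, 4 had at least 1 such neighbour. The region in 4th place, chr11:1999864-2001295, also had 3, so this count was not particular to HSD17B7. The distance of 50 kb was chosen after the values were seen; within 25 kb the HSD17B7 leading region had 2 such neighbours. Outside its leading region the HSD17B7 window held intervals at 33.2, 16.1 and 11.1 times the density of the whole list in hypoxia 1, 2 and 3. The GPRC5B-GPR139 window stood at 14.6, 3.53 and 4.06 times and the CARMN-CSNK1A1 window at 0, 2.12 and 3.24 times. The 7 intervals of hypoxia 1 outside the leading regions were 5 regions, since 1 region in each of the HSD17B7 and GPRC5B-GPR139 windows was split into 2 intervals. Counted by regions, hypoxia 1 stood at 29.8 times in the HSD17B7 window and at 8.19 times in the GPRC5B-GPR139 window. These ratios rest on 0 to 10 intervals per window and library, and the windows were chosen for a strong site, so they have no test.

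The local background differed between the windows. In the HSD17B7 window it was 1.76 to 4.36 times the genome-wide value, with a median of 2.74, 2.62 and 2.53 in hypoxia 1, 2 and 3 against 1.66, 1.35 and 1.33 over the whole lists. In the GPRC5B-GPR139 window it was 1 to 2.53 times that value with a median of 1.01 over the lists, and in the CARMN-CSNK1A1 window 1.05 to 2.65 times with a median of 1.52. The part of the higher background in the number of calls at HSD17B7 was not tested. No interval of the windows reached 10 times the genome-wide value.

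**Figure D2:**
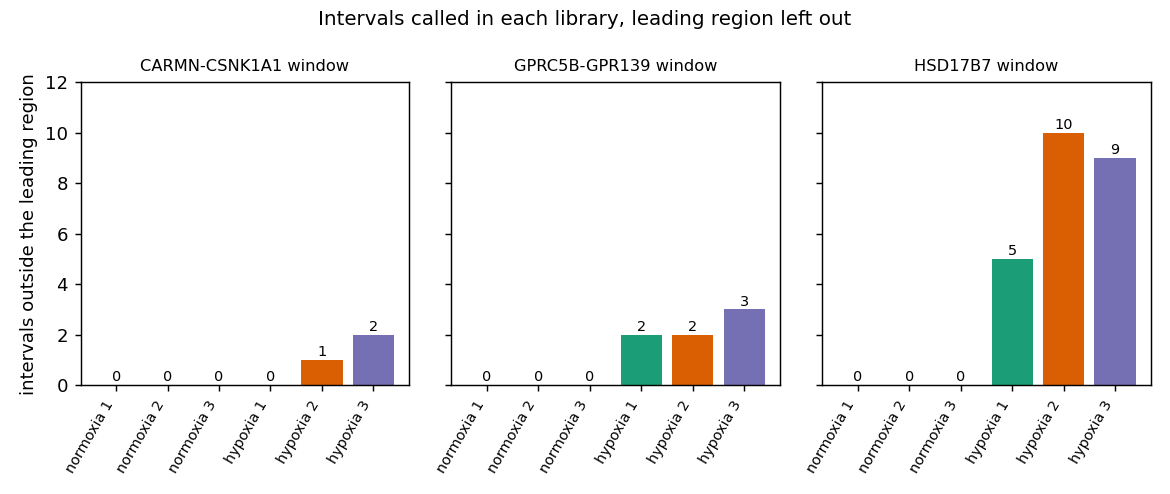
Number of intervals called outside the leading region in each of the 6 libraries, 1 panel per window (bars start at 0). Normoxia bars are at 0 in every panel, and the HSD17B7 window has 5, 10 and 9 intervals in hypoxia 1, 2 and 3.

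Normoxic and hypoxic libraries were compared on these other intervals, since the leading regions had fixed the windows. Hypoxia 1, 2 and 3 had 7, 13 and 14 of them, a mean of 11.3 ± 3.79 (SD, n = 3), and every normoxia library had 0. The groups did not overlap, nor did they over the whole lists, with 1408, 5833 and 7619 intervals in hypoxia 1, 2 and 3 against 75, 32 and 109 in normoxia 1, 2 and 3. By exact permutation, two-sided, p was 0.1, and a design of 3 against 3 can go no lower. The normoxia lists averaged 0.0104 to 0.0353 intervals per Mb over the genome and the windows cover 880 kb, so the test says nothing particular to these windows. The inferred read extension was 46 to 47 bp in normoxia against 48, 155 and 167 bp in hypoxia 1, 2 and 3. The smallest −log10 p of a list was 6.18 to 7.15 in normoxia and 4.23 to 5.28 in hypoxia. With 7.15 as the limit in every list the hypoxia mean was 10. The part of the extension in these counts was not tested. By window the hypoxia means were 8 ± 2.65 at HSD17B7, 2.33 ± 0.577 at GPRC5B-GPR139 and 1 ± 1 at CARMN-CSNK1A1 (SD, n = 3). The exact permutation p was 0.1, 0.1 and 0.4, or 0.15, 0.15 and 0.4 after Benjamini-Hochberg adjustment over the 3 windows. With every normoxia library at 0, as their short lists made likely, p turned only on whether each hypoxia library had such an interval. These p-values do not compare the windows with each other. At CARMN-CSNK1A1 hypoxia 1 had 0 such intervals, as the normoxia libraries did, so the groups overlapped. Without hypoxia 1 the mean there was 1.5 with an exact permutation p of 0.1, the smallest for 2 against 3, and without hypoxia 3 it was 0.5.

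No region of the windows overlapped a normoxia interval (0 of 20). The lists of normoxia 1, 2 and 3 hold only 75, 32 and 109 intervals, and a count of 0 allows up to 4.8%, 10.9% and 3.33% of each list (upper bound of the exact Clopper-Pearson 95% interval, counting error only). Of all regions with a hypoxia call 1.2% overlapped a normoxia interval, so a count of 0 among 20 is near this background. Among regions called in all 3 hypoxia lists the share was 7.1%, against 0 of 8 here.

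Of the first 10 regions in the order, 6 had a call in normoxia 3, and the 4 without a normoxia call were the 3 leading regions and the first region, at chr6:44050244-44051251. Those 6 calls rested on 7 to 14 reads with folds of 5.43 to 9.27, and normoxia 1 and 2 had no call there. A call at the leading regions would have needed 6 to 9 reads, so this split rests on few reads in 1 library. The regions next to the leading ones in the order had folds of the same size. Above and below the CARMN-CSNK1A1 region (3rd) stood chr14:34407289-34408153, with folds of 34.6, 81.6 and 96 in hypoxia 1, 2 and 3, and chr11:1999864-2001295, with 26.6, 106.8 and 136.8. The GPRC5B-GPR139 region (6th) stood between chr2:75005297-75006330, with 30.6, 74.5 and 90.1, and chr19:34849923-34850743, with 33.6, 60.5 and 83.8. All 4 of these neighbours had a call in normoxia 3.

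The HSD17B7 region, in 10th place, was just inside the choice. Above it stood chr16:30076386-30077277, with folds of 27.9, 91.1 and 60.8 in hypoxia 1, 2 and 3. Just outside, in 11th place, was chr1:8938459-8939744, with folds of 24.4, 80.6 and 96.9. The order rests on the rank as a share of each list, which gives hypoxia 1, the shortest list, the most weight. By plain mean rank or by the worst rank the HSD17B7 region would be 14th and outside the first 10, and by −log10 p it would be 3rd; the CARMN-CSNK1A1 and GPRC5B-GPR139 regions were within the first 10 in each of these orders.

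**Figure D3:**
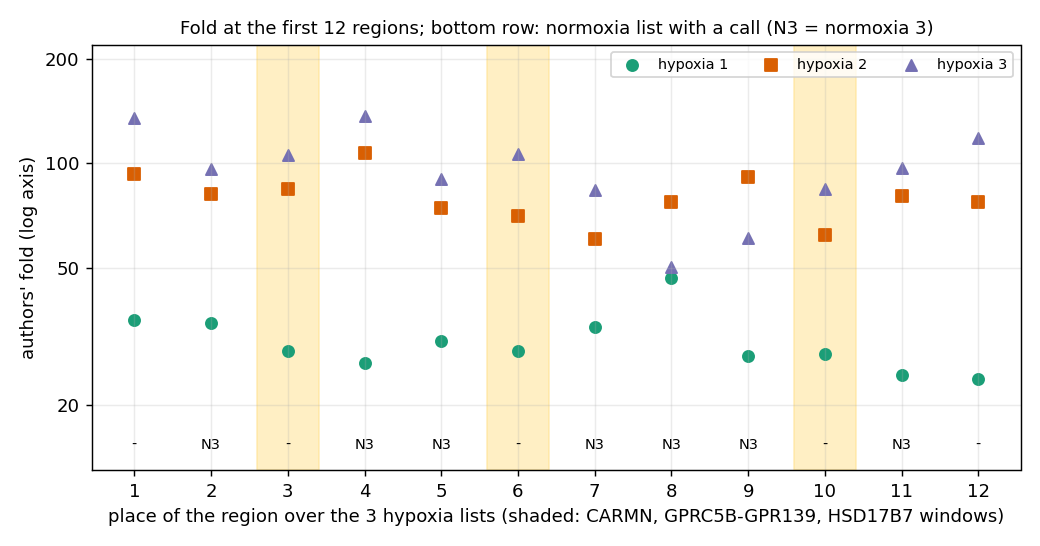
Authors' fold (log axis) at the first 12 regions over the hypoxia lists, 1 symbol per hypoxia library, with the leading regions of the windows shaded and the normoxia list with a call, where there was one, in the bottom row. The 3 shaded regions have folds between 28.1 and 106.6 and no normoxia call. Of the first 10 regions, 6 have one in normoxia 3, on 7 to 14 reads.

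How weak a normoxia signal could have been missed was read from the lists. At the leading regions a call in normoxia 1, 2 or 3 would have needed 6 to 9 reads at the local background, with the smallest −log10 p of that list as the limit. The reads of hypoxia 1, whose inferred extension of 48 bp is close to the 46 and 47 bp of the normoxia libraries, were scaled to the depth of each normoxia library. They came to 50.4, 46.3 and 48.1 at CARMN-CSNK1A1, 35.8, 32.9 and 34.2 at GPRC5B-GPR139 and 47.5, 43.6 and 45.3 at HSD17B7. These are 5.14 to 6.29 times the reads needed, so a signal of 15.9% to 19.4% of that in hypoxia 1 would have reached the limit. This takes the local background of hypoxia 1 to hold in normoxia, and it compares single libraries.

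The same reading was less sharp at the other 5 regions called in all 3 hypoxia lists. The region 36 kb after the HSD17B7 leading summit had 3.46 to 4.24 times the reads needed, and the companion 2.99 kb after it 2.18 to 2.37 times. The companion 7.81 kb after had 1.78 to 2.18 times. At the region 123 kb before the GPRC5B-GPR139 leading summit the factor was 1.33 to 1.45, and at the region 154 kb after the HSD17B7 leading summit 0.89 to 1.09. At this last region normoxia 2 could have held the full hypoxia 1 signal without a call.

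**Figure D4:**
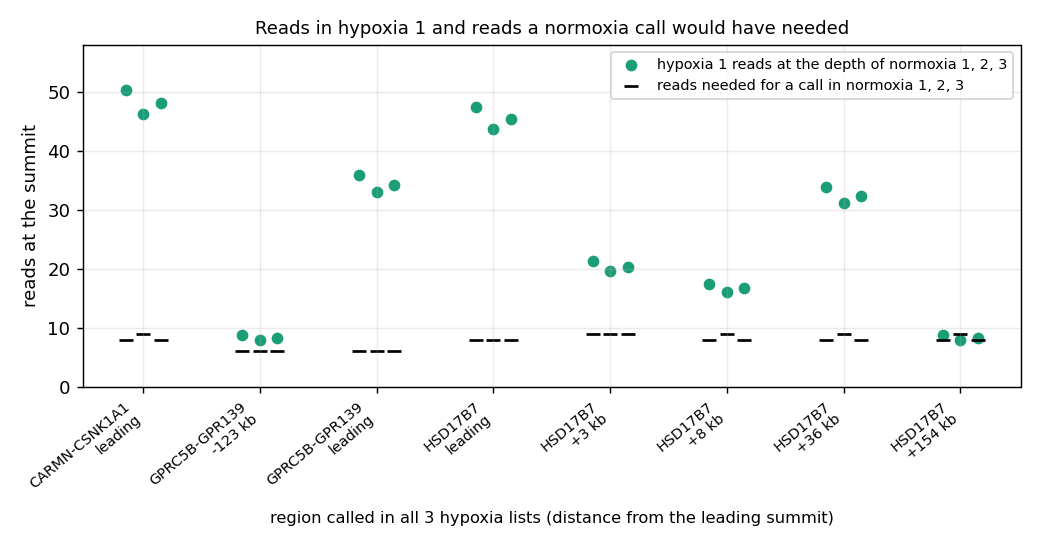
Reads at the summit in hypoxia 1, scaled to the depth of normoxia 1, 2 and 3 (points, left to right), and reads needed for a call in those libraries (dashes), for the 8 regions called in all 3 hypoxia lists. The points of the 3 leading regions lie between 32.9 and 50.4 reads, above dashes at 6 to 9, whereas the points 154 kb after the HSD17B7 leading summit lie on the dashes.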

How the data were processed

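Reads were aligned with BWA 0.7.17 and peaks called with MACS2 on hg19, per the submitters' processing notes, with caller settings and any duplicate filter not given in the sources used here. Each HIF-1α library has its own deposited narrowPeak list. The deposited score equals the −log10 q value times 10 without its decimals (16463 of 16463 rows). The deposited fold is a ratio of summit reads plus 1 to local background plus 1, and −log10 p and −log10 q are the authors' caller's own. The fold describes and ranks peaks within a list.

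Summit rows of 1 interval were merged, keeping the summit of smallest p, and positions are 1-based on chromosomes 1 to 22, X and Y. Whole reads and local background were solved from fold and −log10 p within 0.001 for all 16463 rows; 165 rows had more than 1 solution, and no such value was printed for a window. The shortest interval of a list was taken as its read extension. The smallest background of a list, divided by that length, gave depths of 5.31 to 6.69 reads per kb. The median interval had 9 to 24 reads at its summit, depending on the list. Input libraries enter only through the background. Code was tested on simulated data.

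The members, lists and windows were chosen with earlier results of these data known. Every region in a window is accounted for; those called in at least 2 lists are named with their values, and the regions next in order beside each leading region. Libraries were compared by exact permutation tests of interval counts. Alternatives covered thresholds on q, fold and p, local background, overlap, window width, summit rows, order, each library left out and a replicate block. Python 3.11.15, numpy 2.4.6, pandas 2.3.3, scipy 1.17.1 and matplotlib 3.10.9 were used.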

Additional observations from a re-analysis of the deposited data

How the results depend on the processing

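The excess of 11.3 intervals per hypoxia library outside the leading regions lay between 7.67 (−log10 q of at least 5, or fold of at least 6) and 15.7 (summit rows in place of intervals) under the alternatives run, with p never under 0.1, the smallest possible, so the test says nothing of stability. Counting regions in place of intervals, chosen after the data were seen, gave 10.7. Leaving out single libraries gave 10 to 13.5, and 8 to 13 recurring regions; the lower value came without hypoxia 2 or hypoxia 3, by construction, since all 5 regions called in exactly 2 lists needed both. By window, the excess at CARMN-CSNK1A1, main value 1, was 0.5 without hypoxia 3, 1.5 without hypoxia 1 (exact permutation p = 0.1 in place of 0.4, since the groups no longer overlapped), 2 in wider windows and 0.667 at the stricter q or fold. At HSD17B7, main value 8, it was 12.3 with summit rows and 5.33 at the stricter q or fold. Summits within 150 bp gave 11 recurring regions and windows widened by 100 kb gave 15. The count of regions with a normoxia call was 0 under every alternative run. With the replicate block, same-numbered libraries as pairs, the excess was 11.3 (exact sign-flip permutation p = 0.25, the smallest 3 pairs allow), and by window 8 and 2.33 (exact sign-flip permutation p = 0.25 each) and 1 (exact sign-flip permutation p = 0.5), equal to the main values by construction. Deviations of same-numbered libraries correlated at 0.00225 to 0.0768 over 9420 regions, of which 138 had a normoxia call, and the best match was the same-numbered library for 4 of 6; the labels give only numbers, so the main tests did not pair the libraries. The mean density ratio of 10.6 was 7.07 in wider windows, 7.14 without hypoxia 1 and 9.45 with regions in place of intervals. The 7 regions of 1 list rested on 8 to 19 reads.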
